A study of Homo sapiens with 6 samples.

Results

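The cytokines and chemokines described here are IL6, IL1A, IL1B, CXCL8, CXCL1, CXCL2, CXCL3, CCL2, LIF and TNF, the classical inflammatory products of senescent cells. They were chosen by gene symbol, with earlier results of these data known. Among 20461 genes with an Ensembl identifier, 10 of the 10 were found. ARPE-19 cells, an established line of human retinal pigment epithelium, had been sequenced as RNA, with 3 libraries of cells carrying a control lentivirus and 3 of cells carrying a lentivirus for PDZK1 overexpression. PDZK1 is a scaffold protein of the plasma membrane. Cells of both groups had received virus at a multiplicity of infection of 10, had been selected with 4 µg/ml puromycin and had then spent 48 h in 37.5 mM glucose, so every value is a level in high glucose and by the labels the groups differ in the virus alone. The study used this medium as a cell model of diabetes in which the epithelium turns senescent, and the comparison asked how transcript levels differ when PDZK1 is raised. No library in normal glucose was analysed here. The study's methods speak of independent experiments in general, but neither they nor the labels say whether these replicates were separate cultures, so the p-values measure the spread between these libraries, which may be technical.

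Senescent cells stop dividing and secrete a mixture of cytokines, chemokines, growth factors and proteases, known as the senescence-associated secretory phenotype. Interleukin-1α acts on its receptor early in this program and switches on the transcription factors NF-kB and C/EBPβ, which in turn drive IL6, CXCL8 and the related CXC chemokines. In the retina, the pigment epithelium is a known source of CXCL8 and CCL2, which attract neutrophils and monocytes respectively. A transcript level says nothing of how much protein left the cell.

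The shallowest library, control replicate 3, held 27970618 counts and the deepest, PDZK1 replicate 2, held 32804567. Values per library are given in the order of replicates 1 to 3. At this depth, the 3 counts that a count of 0 allows correspond to 0.0919 to 0.108 CPM (counts scaled to library size, here the plain total over Ensembl genes). Counts of PDZK1 itself were 19, 18 and 23 in the control and 3020, 2541 and 2828 in the PDZK1 libraries, so each library carried the transcript its label names. Of the 11 markers of retinal pigment epithelium, RPE65 and TTR were at 0 in every library. OTX2 and MITF, transcription factors of this epithelium, and the keratins KRT8 and KRT18 were present in all 6 libraries. The marker BEST1 had 11459 counts in PDZK1 replicate 1 and 124 to 181 in the other libraries. Summed FPKM of the 11 markers was 1025 to 1180 in the control libraries and 1078 to 1218 in the PDZK1 libraries. KRT8 and KRT18, which simple epithelia share, made up 90.7% to 97.1% of it, and without them the sum was 34.1 to 42.3 in the control and 34.6 to 113 in the PDZK1 libraries, the highest being the library with raised BEST1. SERPINF1, the epithelium's secreted factor PEDF, had 40, 34 and 38 counts in the control and 31, 12 and 24 in the PDZK1 libraries, without overlap, and did not pass the test described below (log2 fold change −0.83, edgeR adjusted p = 0.294). FPKM are fragment counts divided by transcript length and by the size of the library. The leukocyte markers PTPRC, CD3E and AIF1, 3 of 8 in that list, were at 0 in every library. CD14, ITGAM and LYZ had at most 7 counts in any library, and CD79A at most 21. Nearly all of the list's summed FPKM was CD68. This sum was 70.9 to 86.0 in the control and 66.6 to 69.0 in the PDZK1 libraries. CD68 had 131, 146 and 160 CPM in the control and 123, 126 and 126 in the PDZK1 libraries, without overlap. It did not pass the test described below (log2 fold change −0.22, edgeR adjusted p = 0.134). By DESeq2, 1 gene of this list passed. The endothelial marker CDH5 was at 0 in every library, and PECAM1, VWF and TEK had at most 22 counts in any library. The summed FPKM of the 5 endothelial markers, most of it KDR, was 0.808 to 0.838 in the control and 0.617 to 0.672 in the PDZK1 libraries. KDR had 155, 149 and 141 counts in the control and 119, 117 and 107 in the PDZK1 libraries, without overlap. It did not pass the test described below (log2 fold change −0.47, edgeR adjusted p = 0.111).

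CXCL8, CXCL1, CXCL3 and CXCL2 lie in this order within 358.8 kb of chromosome 4 on GRCh38. In GENCODE release 29, CXCL8 spans chr4:73740506-73743716 and CXCL1 spans chr4:73869393-73871242, both on the + strand. On the − strand lie CXCL3, chr4:74036589-74038807, and CXCL2, chr4:74097035-74099293. Their promoters are shown with that of IL6 because NF-kB is the best known regulator of these genes, and because CXCL2 and CXCL3 passed the test in the data below, while the closely related CXCL1 did not. The sequences are those of RefSeq on GRCh38.p14 and cover the 120 bases before the transcription start that RefSeq gives, 5′ to 3′ along the gene. RefSeq starts can lie outside or inside the GENCODE span. Capitals mark each match to GGNNTTTCC, an NF-kB-like motif looked for on both strands and chosen after the sequences had been read.
CXCL1 (chr4:73869273-73869392, + strand): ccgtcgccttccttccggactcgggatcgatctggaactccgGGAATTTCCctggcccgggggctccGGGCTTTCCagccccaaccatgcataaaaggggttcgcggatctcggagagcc
CXCL2 (chr4:74099196-74099315, − strand): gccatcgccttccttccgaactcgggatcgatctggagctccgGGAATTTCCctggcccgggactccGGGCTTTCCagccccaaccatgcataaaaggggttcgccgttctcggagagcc
CXCL3 (chr4:74038690-74038809, − strand): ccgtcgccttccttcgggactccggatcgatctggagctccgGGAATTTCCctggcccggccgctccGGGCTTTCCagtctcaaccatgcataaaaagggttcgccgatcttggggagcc
CXCL8 (chr4:73740449-73740568, + strand): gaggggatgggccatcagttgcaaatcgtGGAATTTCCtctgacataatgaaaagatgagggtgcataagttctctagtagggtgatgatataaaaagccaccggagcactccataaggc
IL6 (chr7:22727080-22727199, + strand): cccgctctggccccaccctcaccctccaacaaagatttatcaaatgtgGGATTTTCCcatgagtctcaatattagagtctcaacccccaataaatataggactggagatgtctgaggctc

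Of the 10 genes, 8 had an entry in the RefSeq promoter table, and CCL2 and LIF had none. In windows of 250 bases before to 50 bases after the start, 5 of the 8 genes with an entry held the NF-kB-like motif. It was present in 6.26% of the 35116 promoter windows of all genes, a share of windows and not of genes. The motif was chosen after the promoters of the members had been read, so this share is no test of enrichment. CXCL1, CXCL2 and CXCL3 each held 2 matches, which began 78, 77 and 78 bases before the start for the first and 53 bases before it for the second in each. The single match began 91 bases before the start of CXCL8 and 72 bases before that of IL6. CXCL1, CXCL2 and CXCL3 shared an unbroken run of 23 bases, and the longest run shared by a pair was 42 bases for CXCL1 and CXCL2, 37 for CXCL2 and CXCL3 and 25 for CXCL1 and CXCL3. The AP-1 motif TGANTCA, present in 7.71% of windows, was found in the windows of CXCL8 (1 match) and IL1A (2 matches, the same sites in both of its overlapping entries). The C/EBP-like motif TTGCNNAA, present in 10.5% of windows, was found once each in the windows of IL6, IL1B and CXCL2. This strict pattern misses near matches, such as ttgcaaat in the printed CXCL8 promoter, which differs at the last base. A window without a match may therefore still hold a C/EBP site. These matches are descriptions of sequence, and no binding was measured.

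Levels differed widely between the 10 genes. On the FPKM scale, which takes transcript length into account, CXCL8 stood highest in the control libraries with 193 ± 40.5 (SD, n = 3). CCL2 followed with 96.1 ± 11.6 FPKM and LIF, a cytokine of the interleukin-6 family, with 52.9 ± 5.25 FPKM (SD, n = 3 each). CXCL3, CXCL1, IL6 and IL1B formed a middle group with 9.18, 8.46, 8.43 and 5.29 mean FPKM, and the control libraries of each gene overlapped those of its neighbour in this order. CXCL2 came next with 1.64 ± 0.0800 FPKM and IL1A with 0.214 ± 0.0938 FPKM (SD, n = 3 each). TNF, the founding cytokine of its family, had a count of 0 in all 6 libraries, so no comparison could be made and its level lay under the limit set by depth.

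**Figure D1:**
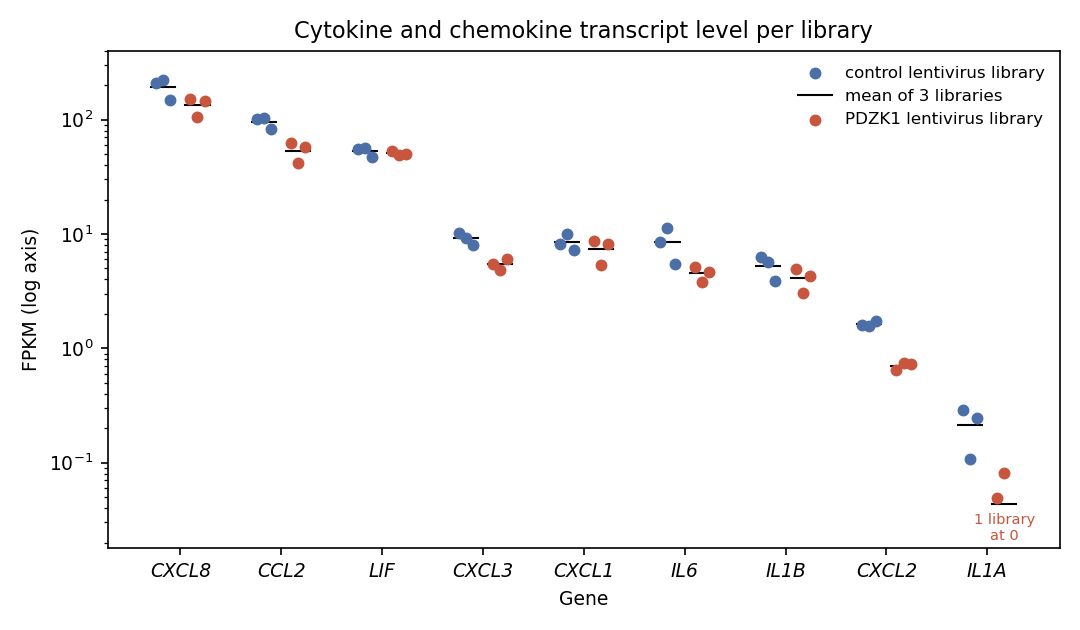
FPKM (log axis) of the 9 detected cytokines and chemokines in each library, ordered by control mean; points are libraries, bars are means of 3 libraries, and IL1A was at 0 in 1 PDZK1 library. The blue control points lie above the red PDZK1 points for CXCL2, CXCL3, CCL2, IL6 and IL1A, and the colours overlap for LIF, CXCL1, IL1B and CXCL8.

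CXCL2 and CXCL3 fell in the PDZK1 libraries, to 42.9% and 59.4% of the control level. Both are ELR+ chemokines that attract neutrophils through the receptor CXCR2, and both passed the test across 13645 genes. CCL2 and IL6 stood at 52.9% and 53.3% of control and did not pass it. CXCL8, IL1B, CXCL1 and LIF stood at 68.5%, 75.3%, 86.4% and 95.7% and did not pass it either. In bulk RNA, fewer cells of a type and less RNA per cell cannot be told apart.

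CXCL2 had 63, 60 and 59 counts in the control and 25, 30 and 28 in the PDZK1 libraries. Every control library lay above every PDZK1 library. The libraries of a group were close to each other, with an SD of 5.5% of the mean CPM in control and 8.2% in PDZK1 libraries. At counts this low, counting error alone gives a wider spread on average, so the closeness is no measure of stability. Its mean was 2.01 ± 0.111 CPM in control and 0.859 ± 0.0706 CPM in PDZK1 libraries (SD, n = 3 each), a log2 fold change of −1.22 (SE 0.245, 95% interval −1.77 to −0.67, edgeR adjusted p = 0.0260). The call was kept without control replicate 3 (adjusted p = 0.0483). It was lost without control replicate 1 (0.0856), control replicate 2 (0.0992), PDZK1 replicate 1 (0.118), PDZK1 replicate 2 (0.0736) or PDZK1 replicate 3 (0.104), all edgeR adjusted p-values, while the log2 fold change stayed between −1.27 and −1.16. On log2(FPKM + 1), a scale that understates the change of low genes, it was −0.63.

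CXCL3 had 384, 337 and 262 counts in the control and 205, 187 and 225 in the PDZK1 libraries. The groups did not overlap, in counts or in CPM. Its mean was 10.8 ± 1.20 CPM in control and 6.40 ± 0.694 CPM in PDZK1 libraries (SD, n = 3 each), a log2 fold change of −0.75 (SE 0.128, 95% interval −1.04 to −0.46, edgeR adjusted p = 0.0124). Without control replicate 1, control replicate 2 or PDZK1 replicate 1 the call was lost, with edgeR adjusted p-values of 0.0552, 0.0705 and 0.0707, and the log2 fold change ran from −0.83 to −0.67 when any one of the 6 libraries was left out. It was also lost in limma on log2(FPKM + 0.1) without a filter on low values (adjusted p = 0.0538).

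CXCL1, the third chemokine of this family and also a ligand of CXCR2, had 338, 397 and 254 counts in the control and 352, 225 and 326 in the PDZK1 libraries. Only PDZK1 replicate 2 lay below all control libraries. Its mean was 10.8 ± 1.85 CPM in control and 9.38 ± 2.20 CPM in PDZK1 libraries (SD, n = 3 each), a log2 fold change of −0.21 (95% interval −0.66 to 0.23, edgeR adjusted p = 0.647). CXCL2 relative to CXCL1 within a library, a ratio chosen after the values were seen and given without a test, was 0.186, 0.151 and 0.232 in control and 0.0710, 0.133 and 0.0859 in PDZK1 libraries on the CPM scale. CXCL3 relative to CXCL1 was 1.14, 0.849 and 1.03 in control and 0.582, 0.831 and 0.690 in PDZK1 libraries. In both ratios the groups did not overlap, although PDZK1 replicate 2 came close to the lowest control library. The transcripts of these genes are alike in part, and 12.5% of the 50-base windows of CXCL2, 6.01% of those of CXCL3 and 4.81% of those of CXCL1 also occur in another of these genes, so that reads from such stretches could have been counted for the wrong gene. Windows of CXCL8, IL1A, IL1B, CCL2 and TNF were not shared with another annotated gene.

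CXCL8, interleukin-8, is the main neutrophil attractant of human tissue and acts through CXCR1 and CXCR2. It had 11945, 12106 and 7106 counts in the control and 8374, 6066 and 7993 in the PDZK1 libraries. Scaled to library size, these were 370, 392 and 258 CPM in control and 261, 185 and 252 CPM in PDZK1 libraries, so control replicate 3 stood beside PDZK1 replicates 1 and 3. This gave a log2 fold change of −0.55 (SE 0.230, 95% limits −1.16 and 0.071, edgeR adjusted p = 0.340). CXCL8 made up 48.5% to 52.9% of the summed FPKM of the 10 genes in every library, so a sum over the genes is mostly CXCL8. That sum was 401.7, 421 and 303.1 FPKM in the control and 291.6, 213.9 and 275.7 FPKM in the PDZK1 libraries. Without CXCL8 it was 192.4, 198.2 and 156.1 FPKM in control and 140.4, 108.3 and 131.7 FPKM in PDZK1 libraries.

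CCL2 (chr17:34255218-34257203, + strand), which attracts monocytes through CCR2, had 2880, 2817 and 1890 counts in the control and 1618, 1123 and 1489 in the PDZK1 libraries. The groups did not overlap. The means were 82.9 ± 12.6 CPM in control and 43.9 ± 8.53 CPM in PDZK1 libraries (SD, n = 3 each), a log2 fold change of −0.92 (SE 0.189, 95% interval −1.40 to −0.44). The unadjusted p was 0.00409 and the edgeR adjusted p was 0.0767, so CCL2 did not pass this test. It passed in DESeq2 (adjusted p = 0.000378), limma-voom (0.0226) and edgeR without robust estimation (0.0247), and over 17 alternatives its log2 fold change ran from −1.04 to −0.77.

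IL6 (chr7:22725884-22732002, + strand), the cytokine most often used as a readout of the secretory phenotype, had 336, 409 and 179 counts in the control and 199, 143 and 175 in the PDZK1 libraries. In counts the groups overlapped, because control replicate 3 had 179. In CPM they did not, with 10.4, 13.2 and 6.49 in control and 6.21, 4.36 and 5.52 in PDZK1 libraries, and control replicate 3 lay just above PDZK1 replicate 1. This gave a log2 fold change of −0.91 (SE 0.264, 95% limits −1.53 and −0.29, unadjusted p = 0.0105, edgeR adjusted p = 0.128). IL6 passed the test without control replicate 3, with a log2 fold change of −1.14 (edgeR adjusted p = 0.00244), and in DESeq2 with all libraries (adjusted p = 0.00509). The gene is overlapped on the opposite strand by STEAP1B and by the antisense transcript AC073072.1, with which 15.3% of its 50-base windows are shared, and whether reads were counted by strand is not stated. STEAP1B, looked at because of this overlap, had 269, 266 and 232 counts in control and 313, 334 and 364 in PDZK1 libraries. Its log2 fold change was 0.31 (edgeR adjusted p = 0.145). The windows are shared with AC073072.1 alone, so the values of STEAP1B do not speak to reads from them. The level of AC073072.1 is not given here.

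IL1B (chr2:112829751-112836903, − strand), a cytokine made as an inactive precursor, had 333, 283 and 173 counts in the control and 250, 155 and 218 in the PDZK1 libraries. The groups overlapped. The means were 8.58 ± 2.08 CPM in control and 6.47 ± 1.58 CPM in PDZK1 libraries (SD, n = 3 each), a log2 fold change of −0.41 (95% interval −0.95 to 0.13, edgeR adjusted p = 0.424).

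IL1A (chr2:112773915-112784590, − strand), whose product acts early in the secretory program, had 21, 8 and 15 counts in the control and 4, 6 and 0 in the PDZK1 libraries. These are 44 counts over the control and 10 over the PDZK1 libraries, and PDZK1 replicate 3 lay under the limit that a count of 0 allows. The groups did not overlap, and the exact permutation test on CPM gave a two-sided p of 0.1, the smallest that 3 against 3 libraries can give. IL1A failed the filter on low counts. In the edgeR fit of all genes with at least 1 count the log2 fold change was −2.19 (SE 0.890, 95% limits −4.15 and −0.23, adjusted p = 0.261).

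LIF (chr22:30240447-30246851, − strand) signals through LIFR and the shared receptor chain IL6ST. It had 7434, 7239 and 5375 counts in the control and 7054, 6665 and 6588 in the PDZK1 libraries. In CPM these were 230, 234 and 195 in control and 220, 203 and 208 in PDZK1 libraries, so all PDZK1 libraries lay inside the control range. LIF differed by a log2 fold change of −0.063 (SE 0.0710, 95% limits −0.23 and 0.10, edgeR adjusted p = 0.723), the narrowest interval among the tested genes of the 10. LIF took 13.4% to 15.5% of the summed FPKM of the 10 genes in control and 18.3% to 22.9% in PDZK1 libraries, while CCL2 took 24.7% to 27.3% and 19.4% to 21.2%. LIF is overlapped by the antisense transcripts LIF-AS1 and AC004264.1, and 4.28% of its windows are shared with them.

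**Figure D2:**
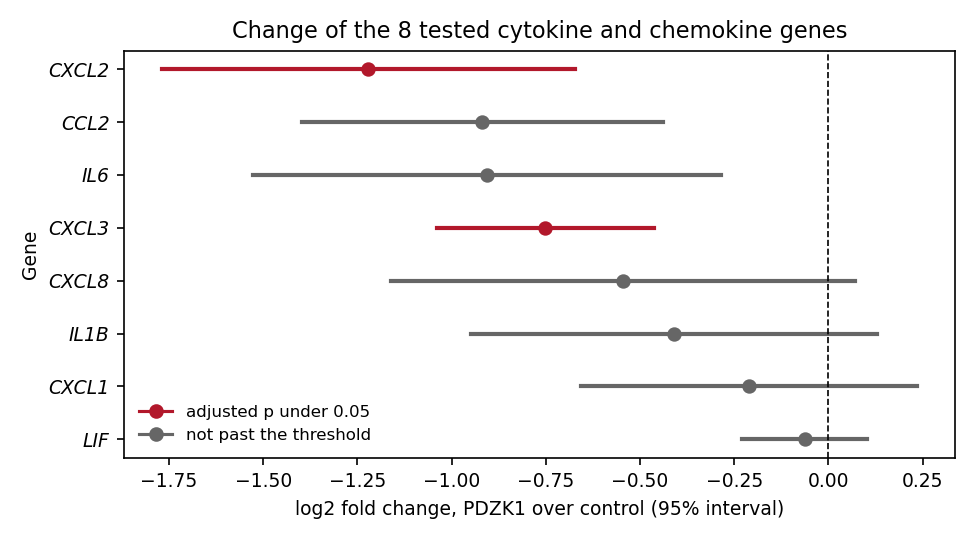
Log2 fold change of PDZK1 over control for the 8 tested genes (horizontal axis), with 95% intervals from the edgeR fit; red marks an adjusted p under 0.05. All 8 points lie left of 0, the intervals of CXCL2, CCL2, IL6 and CXCL3 exclude 0, and those of CXCL8, IL1B, CXCL1 and LIF include it.

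Of the 10 genes, 8 passed the filter on low counts, 1 failed it with reads in 5 libraries (IL1A) and 1 had no reads (TNF). All 8 that passed had reads in every library, the fewest being 25 for CXCL2. All 8 had negative log2 fold changes, with a median of −0.65, against a median of −0.000255 and 50.1% lower over all 13645 tested genes. The 10 genes were chosen with earlier results of these data known. The shares given here describe them and do not test a set fixed beforehand. By edgeR adjusted p under 0.05, 2 of the 8 passed, both lower, where 3.83% of all tested genes passed and 2.41% passed as lower. At an unadjusted p under 0.05, 4 of the 8 passed, where 17.5% of all tested genes did. The CPM of the groups did not overlap, with PDZK1 lower, in 4 of the 8 (IL6, CXCL2, CXCL3 and CCL2), where 12.3% of all tested genes showed this. DESeq2 called 4 of the 8, the same genes, where it called 5.81% of all genes it tested. The number called by edgeR moved with the libraries: it was 0 without control replicate 1, control replicate 2 or PDZK1 replicate 1, 1 without PDZK1 replicate 2 or PDZK1 replicate 3, and 3 without control replicate 3.

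The same libraries were lowest for many of the 9 detected genes. Control replicate 3 had the lowest CPM of its group for 7 of them, namely IL6, IL1B, CXCL8, CXCL1, CXCL3, CCL2 and LIF. PDZK1 replicate 2 had the lowest CPM of its group for the same 7, and for 6 of these it was the lowest of all 6 libraries. Over all tested genes, control replicate 3 was the lowest of its group for 39.4% and PDZK1 replicate 2 for 36.7%. PDZK1 replicate 1 was the highest of its group for 6 genes. How often a library was lowest of all 6, or highest of its group, over all tested genes was not computed. CXCL2 did not share this pattern, with control replicate 3 at 106.4% and control replicates 1 and 2 at 97.0% and 96.6% of the control mean. In contrast, IL6 ran from 64.6% to 131.8% of the control mean among the control libraries, and CXCL8 from 75.8% to 115.4%. Control replicate 3 was also the shallowest library, and the part of either library in these values was not tested.

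**Figure D3:**
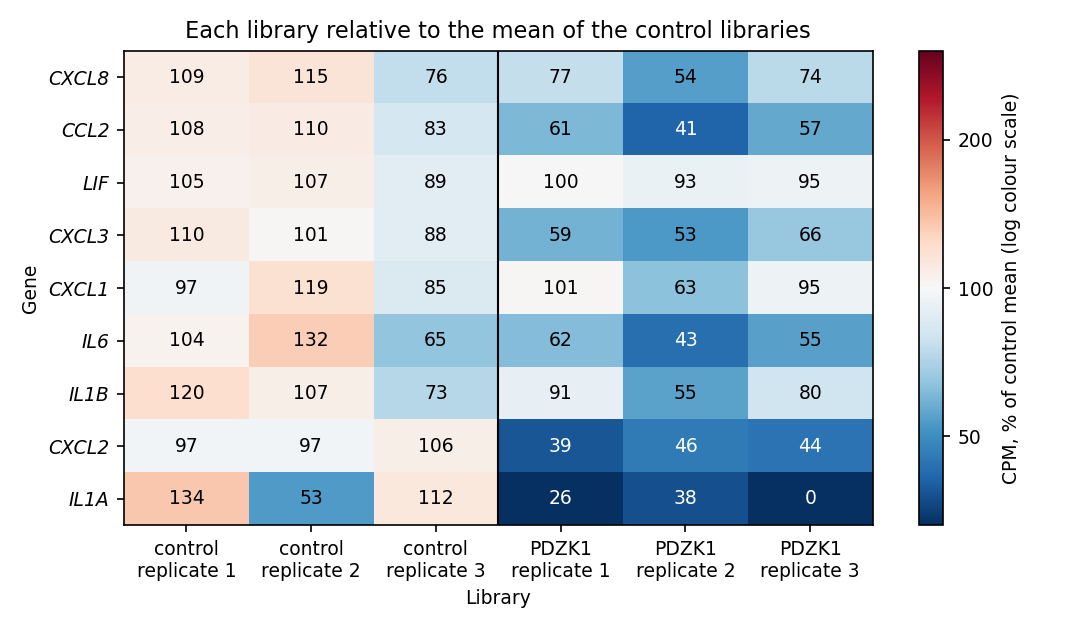
CPM of each detected gene in each library as a percent of its control mean, on a log colour scale from blue (lower) to red (higher), with control libraries left of the line and PDZK1 libraries right of it; genes run from the highest to the lowest control FPKM, and values of IL1A under the colour range share its darkest blue. The columns of control replicate 3 and PDZK1 replicate 2 are the bluest of their groups in most rows, and CXCL2 is near 100 in all control libraries and between 39 and 46 in all PDZK1 libraries.

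The surrounding pathway was described with 9 lists holding 99 genes, of which 75 were tested. These lists too were chosen with earlier results of these data known. Of these, 1 passed the edgeR test as higher and 3 as lower, together 5.33% against 3.83% of all tested genes, and 13 had an unadjusted p under 0.05, which is 17.3% against 17.5% of all tested genes. The median log2 fold change over the 75 was −0.028. The lists follow the signal from receptors to the nucleus and back to the transcripts. Over all tested genes, 3.83% passed edgeR and 17.5% had an unadjusted p under 0.05, and DESeq2 called 5.81% of the genes it tested. The counts per list below are to be read beside these shares.

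Of the 14 genes in the receptor list, 7 were tested and none passed edgeR's adjusted threshold, with 2 at an unadjusted p under 0.05 and 1 passing in DESeq2. The tested genes include IL1RN, the interleukin-1 receptor antagonist, which is a secreted ligand and not a receptor (log2 fold change −0.43, edgeR adjusted p = 0.313). The median log2 fold change was −0.096. CXCR1 and CXCR2, the receptors of the CXC chemokines, and CCR2, the receptor of CCL2, had a count of 0 in every library, and they are named for that. IL6R, the binding chain for interleukin-6, had the lowest log2 fold change at −0.62 (edgeR adjusted p = 0.0706), with 206, 171 and 134 counts in control and 120, 104 and 126 in PDZK1 libraries. It passed in DESeq2 (adjusted p = 0.0405) and, in edgeR, without control replicate 3 (0.0367). LIFR had the highest at 0.27 (edgeR adjusted p = 0.254).

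Between receptor and nucleus, 14 of 14 signal adaptor genes were tested and none passed in edgeR or in DESeq2, with 1 at an unadjusted p under 0.05. Their log2 fold changes ran from −0.11 for IRAK2, a kinase that works below the interleukin-1 receptor, to 0.26 for MYD88, its adaptor (edgeR adjusted p = 0.136), with a median of 0.067. None of the 5 NF-kB subunit genes passed in edgeR or DESeq2, and none had an unadjusted p under 0.05. They ran from −0.19 for RELB to 0.072 for RELA on the log2 scale, with a median of −0.11. RELA, the p65 subunit, had 2155, 2018 and 1566 counts in control and 2095, 2236 and 2057 in PDZK1 libraries. NF-kB works by moving into the nucleus, and a transcript level does not measure that.

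Of the 8 NF-kB inhibitor genes, all tested, 1 fell in edgeR and 2 passed in DESeq2. At an unadjusted p under 0.05 there were 3, or 37.5%, against 17.5% of all tested genes. Of the 8 log2 fold changes, 7 were negative, where 50.1% of all tested genes were, and their median was −0.075. NFKBIZ, an atypical inhibitor family member that is itself induced by interleukin-1 and is needed for the induction of IL6, had 1367, 1246 and 947 counts in control and 886, 759 and 913 in PDZK1 libraries. In CPM the groups did not overlap, with 39.0 ± 4.17 in control and 26.5 ± 2.98 in PDZK1 libraries (SD, n = 3 each), a log2 fold change of −0.56 (95% interval −0.79 to −0.32, edgeR adjusted p = 0.0221). The call was lost without control replicate 1 (0.0736), control replicate 2 (0.109), PDZK1 replicate 1 (0.0894) or PDZK1 replicate 3 (0.0514), all edgeR adjusted p-values, and in the limma fits of log2 FPKM (adjusted p 0.0852 to 0.122). TNFAIP3, the deubiquitinase A20 and an NF-kB target, had the lowest log2 fold change of the list at −0.70, with 1660, 1585 and 1054 counts in control and 973, 732 and 1078 in PDZK1 libraries. Its groups overlapped in counts and not in CPM, with 51.4, 51.3 and 38.2 in control and 30.4, 22.3 and 34.0 in PDZK1 libraries. TNFAIP3 did not pass edgeR (adjusted p = 0.148) and passed DESeq2 (adjusted p = 0.000103). NFKBIB had the highest at 0.30 (edgeR adjusted p = 0.126).

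Of the 11 AP-1 and C/EBP genes, 10 were tested and 1 fell. JUN, a subunit of AP-1, had 7871, 7359 and 6731 counts in control and 7080, 7255 and 6750 in PDZK1 libraries, which overlap in counts and not in CPM. Its log2 fold change was −0.15 (95% interval −0.22 to −0.074, edgeR adjusted p = 0.0404), a small difference, with CPM of 242 ± 3.21 in control and 218 ± 4.82 in PDZK1 libraries (SD, n = 3 each). The call was kept without control replicate 3 and lost without control replicate 1 (0.123), control replicate 2 (0.118), PDZK1 replicate 1 (0.138), PDZK1 replicate 2 (0.0891) or PDZK1 replicate 3 (0.184), and with library totals in place of TMM scaling (0.0618), all edgeR adjusted p-values, and in limma-voom (0.0508) and the limma fits of log2 FPKM (adjusted p 0.122 to 0.139). The list ran from −0.40 for CEBPD to 0.31 for FOSB. Among 7 genes that control the decay of cytokine mRNA none passed edgeR's adjusted threshold, with 1 at an unadjusted p under 0.05 and 1 passing in DESeq2. ZC3H12A, a ribonuclease that degrades IL6 mRNA, was lowest at −0.36 (edgeR adjusted p = 0.0950, DESeq2 adjusted p = 0.0280), and ZFP36, which binds AU-rich elements of cytokine mRNA, was highest at 0.13.

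In the list of interleukin-1 processing, with 8 genes of which 6 were tested, 1 rose. IL18, a cytokine of the interleukin-1 family that is cut by caspase-1, had 4264, 3903 and 2799 counts in control and 7347, 6912 and 7551 in PDZK1 libraries. Its mean was 120 ± 16.3 CPM in control and 226 ± 13.9 CPM in PDZK1 libraries (SD, n = 3 each), a log2 fold change of 0.91 (95% interval 0.65 to 1.18, edgeR adjusted p = 0.0120). The direction is opposite to that of all 8 tested genes above, IL1B included. The call was lost without PDZK1 replicate 1 (edgeR adjusted p = 0.0579) or PDZK1 replicate 3 (0.0522), with log2 fold changes of 0.91 and 0.88. CASP1, the protease that cuts the precursors of IL1B and IL18, had the lowest value of the list at −0.22 (edgeR adjusted p = 0.410).

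The JAK-STAT list stands for the response to IL6 and LIF. Of 9 genes, 8 were tested and none passed edgeR's adjusted threshold, with 2 at an unadjusted p under 0.05 and 1 passing in DESeq2. SOCS3, a feedback inhibitor that STAT3 induces, had 241, 208 and 167 counts in control and 301, 219 and 174 in PDZK1 libraries. Its log2 fold change of 0.090 (95% interval −0.34 to 0.52) was the highest of the list, and turned to −0.15 without PDZK1 replicate 1. PIM1, a kinase induced by STAT3, was lowest at −0.28 (edgeR adjusted p = 0.363).

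Among 23 other cytokines and chemokines, 10 were tested and 1 fell, and 6 had no reads in any library. IL33, a nuclear cytokine released from damaged cells, had 57, 56 and 88 counts in control and 22, 23 and 25 in PDZK1 libraries. The groups did not overlap, and control replicate 3 was the highest library. Its mean was 2.26 ± 0.809 CPM in control and 0.726 ± 0.0548 CPM in PDZK1 libraries (SD, n = 3 each), a log2 fold change of −1.63 (95% interval −2.33 to −0.92, edgeR adjusted p = 0.0220). The call was lost without control replicate 2 (0.0580), PDZK1 replicate 1 (0.110), PDZK1 replicate 2 (0.0774) or PDZK1 replicate 3 (0.0932), all edgeR adjusted p-values, and in limma-voom (0.0508) and the limma fits of log2 FPKM (adjusted p 0.0701 to 0.113). On log2(FPKM + 1) the change was −0.49. CCL26, an eosinophil attractant, was highest in the list at 0.45 (edgeR adjusted p = 0.512). CXCL5 and CXCL6, further CXC chemokines that act through CXCR2, were named for that. They had at most 6 counts in any control library and 0 in every PDZK1 library, too few for a comparison. CXCL10 and CXCL11, named after their values were seen, went the other way on similarly few reads. PDZK1 replicates 1 to 3 held 4, 0 and 3 reads of CXCL10 and 6, 6 and 3 of CXCL11, while the control group held none. These too are not enough to compare the groups.

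**Figure D4:**
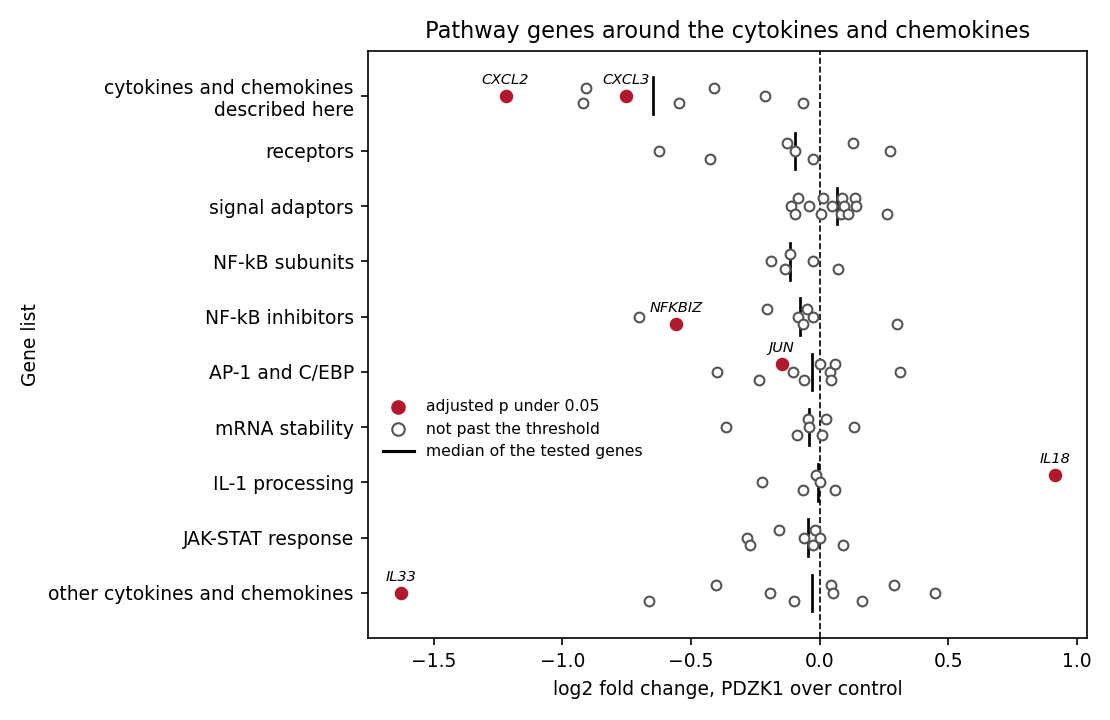
Log2 fold change of PDZK1 over control (horizontal axis) for each tested gene of the 10 cytokines and chemokines and of the 9 pathway lists; open points did not pass, red points passed edgeR at an adjusted p under 0.05, and black bars are medians. The median of the top row lies at −0.65, and those of the 9 lists lie between −0.11 and 0.067.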

How the data were processed

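Total RNA of 6 samples of ARPE-19 cells (3 control, 3 PDZK1) had been sequenced. The submitters' processing notes name fastp 0.20.1, HISAT2 2.2.1 and GRCh38. The counting program and strandedness are not given in the sources used here. The estimated counts were deposited by the authors as whole numbers per gene, unscaled, and the FPKM deposited by the authors divide by transcript length and library size. Each table holds 3 further per-sample columns that match no sample and were not used.

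edgeR 4.0.16 in R 4.3.3 (filterByExpr, TMM, robust quasi-likelihood test, no covariates) was run on the counts of 13645 of 20461 Ensembl genes, with Benjamini-Hochberg adjustment over all of them and a threshold of 0.05. CPM use TMM library sizes, except for the floors at a count of 0, which use plain totals over Ensembl genes. Errors are SD over libraries. Total counts per library were 27970618 to 32804567. Floors cover counting error only. Code was tested on simulated data.

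The members and lists were chosen with earlier results of these data known. The naming rule takes the 10 genes, PDZK1, every pathway gene past the threshold and the tested gene of highest and lowest log2 fold change per list, and others were named after their values were seen. Alternatives were DESeq2 1.42.0, limma 3.58.1 (voom, and log2 FPKM plus 1 or 0.1, for genes averaging 0.5 FPKM or more, or unfiltered), other scalings, filters and estimation, a replicate block, and each library left out. The deviations from the group means of libraries sharing a replicate number had correlations of −0.0462, −0.056 and −0.143 across genes, so the numbers were not taken as pairs.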

Additional observations from a re-analysis of the deposited data

How the results depend on the processing

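Every tested gene of the 10 kept a negative log2 fold change in each of 17 alternatives. Among the 10, 2 passed the threshold, against 4 with DESeq2, 1 with log2(FPKM + 0.1) without a filter, 0 with the replicate block and 0 to 3 when 1 library was left out. With the replicate block, where 0 passed in edgeR, 4 had an unadjusted p under 0.05, and CXCL2 (−1.22, adjusted p = 0.113) and CXCL3 (−0.75, adjusted p = 0.0682) lost their calls at an unmoved fold change. Over the 17 alternatives, CXCL2 passed in 11 (adjusted p 0.00775 to 0.118), CXCL3 in 12 (0.000117 to 0.0707), CCL2 in 3, IL6 in 2, and IL1B, CXCL8, CXCL1 and LIF in 0.

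Of the 75 pathway genes tested, 4 passed, against 8 with DESeq2, 2 with limma-voom, 1 with each of the 3 FPKM fits, 0 with the replicate block (11 at an unadjusted p under 0.05) and 0 to 10 when 1 library was left out. Among genes near no change, SOCS3 ran from −0.15 (without PDZK1 replicate 1) to 0.25 and IRAK2 from −0.24 to 0.049 (without control replicate 1) when 1 library was left out. Over all genes, 522 passed, against 793 with DESeq2, 184 with log2(FPKM + 1), 185 with log2(FPKM + 0.1), 174 with the latter unfiltered, 163 with the replicate block and 181 to 875 when 1 library was left out, the highest being without control replicate 3. Fits with a library left out or with the block have fewer residual degrees of freedom. Whether this or anything else moved the numbers was not tested. Depth limits IL1A, with 10 counts over the PDZK1 libraries, and TNF, with none.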
